A study of Rattus norvegicus with 18 samples.

Results

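Genes of the cell division cycle were followed in a rat beta-cell line that was made to express a mutant insulin. The set names 51 genes, grouped by function: genes that copy DNA in S phase, genes that run mitosis, cyclins and kinases of G1 phase, inhibitors of cyclin-dependent kinases (CDKs) and transcription factors of the cycle. A single-gene probe set was found for 47 of them, out of 14217 genes on the array with one, and Rrm2, Gins2, Cdc6 and Tpx2 were not analysed here. Where a gene had more than 1 such probe set, the one with the highest mean log2 signal was used. Of the 47, Ccnd1 (cyclin D1) lay below the filter on dim probe sets, at 5.99 to 81.5 signal units, and 46 were tested: 15 of DNA replication, 19 of mitosis, 6 G1 cyclins and kinases, 3 CDK inhibitors and 3 transcription factors.

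INS-1 is an insulinoma line of the rat, and the cells were 1 stable clone of it, #4S2, in which doxycycline switches on proinsulin C96Y fused to EGFP. This mutant lacks a cysteine needed for a disulfide bond and misfolds in the endoplasmic reticulum. Control cultures got no doxycycline and the others got 2 µg/ml, each kind being harvested after 24 h, after 48 h and after 5 days. Each of these 6 groups has 3 arrays, which makes 18 in all. Every group carried the transgene, and no array held doxycycline-treated cells without it, so on these arrays effects of the drug and of the mutant protein cannot be told apart. Of the measured markers of the beta cell, 12 of 12 were in the upper 50% of probe sets, against 0 of 8 for acinar and duct cells, 0 of 6 for blood and endothelial cells, 1 of 5 for other islet cells (Gcg) and 2 of 7 for fibroblasts. The latter were Thy1 and Pdgfra, while the collagen genes Col1a1, Col1a2 and Col3a1 were below the filter.

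A dividing cell copies its DNA in S phase and separates the copies in mitosis. Replication genes are transcribed mainly around the start of S phase under E2F factors, while mitosis genes are transcribed later, in G2 and M phase, through the MuvB complex with B-Myb (Mybl2) and FoxM1, which acts through elements in their promoters. CDK inhibitors hold the cycle back, and p27 (Cdkn1b) and p18 (Cdkn2c) are among those that limit division of beta cells. Beta cells divide rarely in the adult, whereas insulinoma lines grow in culture. In RNA from whole cultures, fewer dividing cells and less of a transcript in each of them cannot be told apart.

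Promoters of 6 members are given here to show the letters linked to each class of gene, 5′ to 3′, as the 250 bases before the transcription start in the RefSeq annotation of the rat assembly GRCr8. Cdc20, Plk1 and Bub1b are the 3 genes that passed the test at 48 h, Ccnb2 holds several of the letters typical of mitosis genes, and Mcm5 and Mcm6 are replication genes. Capitals mark 3 motifs on either strand: CCAAT, read ATTGG on the other strand, the core letters of the cell cycle homology region (CHR), taken as TTTGAA or TTCGAA, and an E2F site, taken as TTTCCCGC, TTTCGCGC, TTTGCCGC or TTTGGCGC.
Cdc20 promoter, chr5:137255800-137256049, minus strand: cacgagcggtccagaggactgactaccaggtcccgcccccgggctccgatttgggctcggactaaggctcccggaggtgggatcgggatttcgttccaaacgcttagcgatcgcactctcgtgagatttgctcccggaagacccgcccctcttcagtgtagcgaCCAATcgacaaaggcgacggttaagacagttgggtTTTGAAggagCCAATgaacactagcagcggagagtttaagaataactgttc
Plk1 promoter, chr1:186147408-186147657, plus strand: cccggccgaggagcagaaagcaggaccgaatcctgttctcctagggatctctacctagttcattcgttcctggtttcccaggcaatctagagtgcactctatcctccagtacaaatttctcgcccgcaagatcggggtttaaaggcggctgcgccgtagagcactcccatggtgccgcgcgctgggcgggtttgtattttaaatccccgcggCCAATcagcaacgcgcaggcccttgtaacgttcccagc
Bub1b promoter, chr3:126016817-126017066, plus strand: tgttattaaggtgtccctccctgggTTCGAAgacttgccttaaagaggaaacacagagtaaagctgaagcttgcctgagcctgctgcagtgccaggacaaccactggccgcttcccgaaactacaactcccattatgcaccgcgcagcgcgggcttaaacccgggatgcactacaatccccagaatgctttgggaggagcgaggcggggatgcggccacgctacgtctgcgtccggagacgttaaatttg
Ccnb2 promoter, chr8:79981659-79981908, minus strand: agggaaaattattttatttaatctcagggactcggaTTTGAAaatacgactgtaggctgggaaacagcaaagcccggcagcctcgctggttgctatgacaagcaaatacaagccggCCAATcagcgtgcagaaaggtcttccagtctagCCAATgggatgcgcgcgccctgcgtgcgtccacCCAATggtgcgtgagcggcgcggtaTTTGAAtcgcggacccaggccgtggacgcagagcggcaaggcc
Mcm5 promoter, chr19:13488563-13488812, plus strand: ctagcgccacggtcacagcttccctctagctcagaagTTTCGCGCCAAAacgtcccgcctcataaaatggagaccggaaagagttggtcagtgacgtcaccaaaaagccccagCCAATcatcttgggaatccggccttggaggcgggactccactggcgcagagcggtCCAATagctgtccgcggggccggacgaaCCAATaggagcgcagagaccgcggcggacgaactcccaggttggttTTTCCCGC
Mcm6 promoter, chr13:42404353-42404602, minus strand: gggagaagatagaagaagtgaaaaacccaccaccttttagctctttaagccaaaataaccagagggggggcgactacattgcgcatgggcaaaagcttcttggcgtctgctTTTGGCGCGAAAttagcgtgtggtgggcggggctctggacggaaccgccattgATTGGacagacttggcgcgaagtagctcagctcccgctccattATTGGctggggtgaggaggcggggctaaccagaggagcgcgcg

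A promoter was given for 38 of the 46 tested genes. CCAAT occurred in 12 of 16 mitosis promoters (75.0%) and 8 of 14 replication promoters (57.1%), against 34.3% of all 27457 promoters. The CHR letters occurred in 8 mitosis promoters (50.0%) and 4 replication promoters (28.6%), against 17.3% of all. Both lay in 7 mitosis promoters (43.8%), among them Cdc20 and Ccnb2, against 6.22% of all. The E2F letters showed the opposite order, with 7 replication promoters (50.0%), those of Mcm2, Mcm5, Mcm6, Mcm7, Tyms, Gins1 and Pola1, and 1 mitosis promoter (6.25%), that of Cdk1, against 1.81% of all. Plk1 held CCAAT alone and Bub1b the CHR letters alone, so the 3 genes that passed the test did not share one motif. In Mcm5 and Mcm6 the E2F letters of both strands overlap in one stretch of capitals. These matches describe the letters in this window and no binding was measured.

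At 24 h, no cell cycle gene passed the test, and small differences leaned almost entirely one way. Of the 46 genes, 45 had a mean log2 ratio of doxycycline to control below 0, where 52.5% of all 15521 probe sets tested did. The median log2 ratio was -0.13 over replication genes and -0.18 over mitosis genes, beside -0.01 over all probe sets tested. The lean came from 2 of the 3 pairs of cultures: the replication median was 0.01, -0.24 and -0.22 in pairs 1, 2 and 3, and the mitosis median -0.02, -0.28 and -0.27. Limma, fitted to the 6 arrays with pairs as blocks, called 0 of 46 at an adjusted p under 0.05, beside 0.0129% of probe sets called lower and 0.193% called higher. The methods' t-test called 0 after the same adjustment, and at its own threshold of an unadjusted p under 0.05 it had 2 lower and 0 higher, beside 1.89% and 3.13% of all probe sets. At an unadjusted limma p under 0.05 there were 10 lower and 1 higher, beside 6.94% and 7.75% of all probe sets, and 20 were lower in all 3 pairs, beside 20.3%.

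Mcm3, a subunit of the MCM2-7 helicase that opens DNA at replication forks, had the largest difference at 24 h. Control cultures gave signals of 1589, 2103 and 1583, and treated ones 1340.2, 1416 and 1289. All 3 treated arrays were below all controls, which holds for 3.72% of all probe sets at this time, with a log2 fold change of -0.37 (SE 0.09, n = 3 pairs, limma adjusted p = 0.193). Mcm4, its partner in the helicase, read 1133, 1565 and 2183 in control cultures, and 1041, 1298 and 1536 in treated ones. The groups overlapped, with a wide spread from pair to pair, while every treated array lay below its own control (-0.30, limma adjusted p = 0.271). Pola1, the catalytic subunit of DNA polymerase alpha, read 1087, 1333 and 1166 against 989, 1143 and 831 (-0.28, limma adjusted p = 0.281). Fen1, the nuclease that trims Okazaki fragments, read 1483, 1741 and 2212 against 1439, 1375 and 2094 (-0.15, limma adjusted p = 0.483), with the groups overlapping for both genes. The other replication genes had ratios from -0.22 in Rrm1 to -0.01 in Mcm6.

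Among mitosis genes at 24 h, Aurkb, the kinase of the chromosomal passenger complex, read 2093, 2117 and 2069 in control cultures, and 1842, 1579 and 1669.9 in treated ones. The groups did not overlap, and the log2 fold change was -0.31 (SE 0.08, n = 3 pairs, limma adjusted p = 0.205). Cdc20, which activates the anaphase-promoting complex, read 1667, 2114 and 1624 against 1589.7, 1685 and 1201, and Ube2c, the ubiquitin-conjugating enzyme of that complex, 3881, 3435 and 3298 against 3519, 2742 and 2649.8. Mad2l1, which holds Cdc20 back until chromosomes are attached, read 796, 1236 and 1122 against 780.2, 888 and 911. Each of these 3 was lower within every pair while the groups overlapped, with log2 fold changes of -0.28, -0.26 and -0.27 (limma adjusted p = 0.289, 0.241 and 0.331). In all 3 the smallest difference was that of pair 1.

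At 48 h 3 mitosis genes passed the test and were lower with doxycycline: Cdc20, Plk1 and Bub1b. The other 16 did not pass. All 19 mitosis genes were below 0 in all 3 pairs, where 25.4% of all probe sets were. Their median log2 ratio was -0.42, a signal 25.1% lower, and the medians of the pairs were alike at -0.38, -0.38 and -0.44, beside -0.01 over all probe sets. The range ran from -0.56 in Cdc20 to -0.27 in Bub1. Limma called 3 of 46 lower and 0 higher, beside 1.19% and 2.33% of all probe sets. At an unadjusted limma p under 0.05 all 19 mitosis genes were lower, beside 12.5% of probe sets, and in 14 of 19 the treated arrays lay below every control, beside 10.8%. The methods' t-test had 17 members lower and 1 higher at an unadjusted p under 0.05, beside 6.97% and 8.14% of all probe sets, and 1 lower, Cdk1, after adjustment. The list as a whole was not tested.

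**Figure D1:**
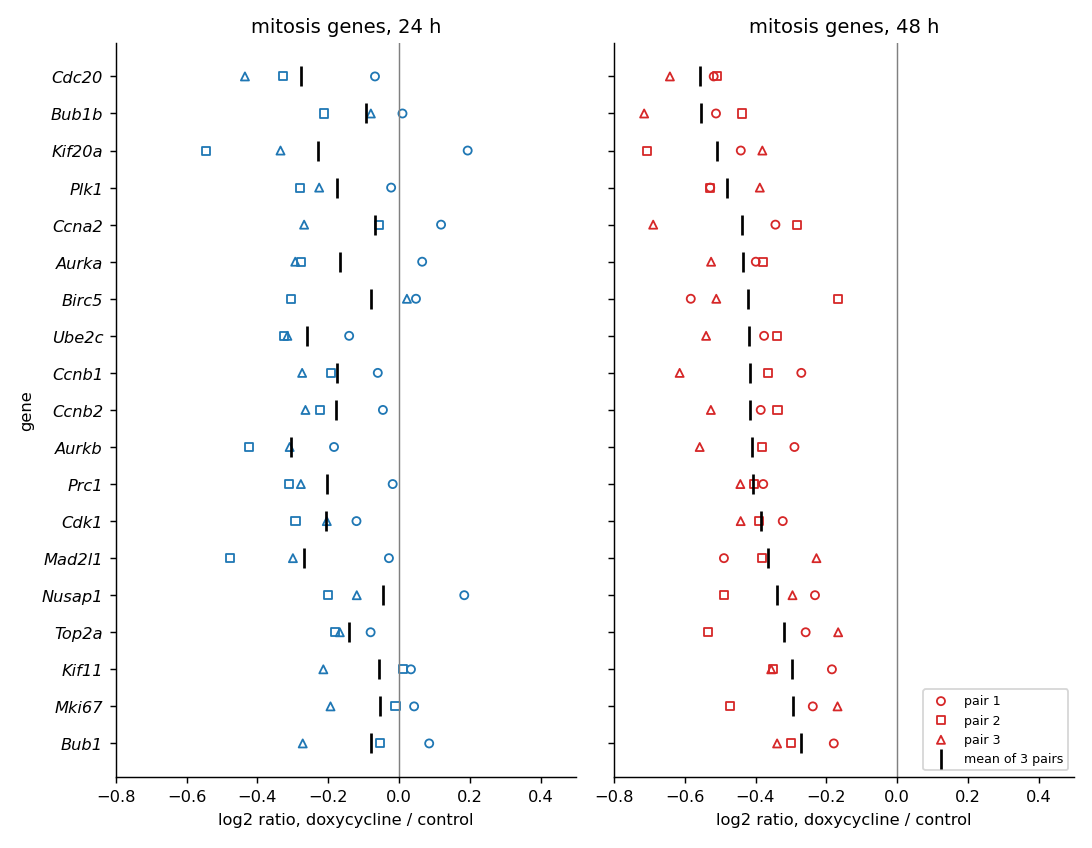
Log2 ratio of doxycycline to control for 19 mitosis genes at 24 h (left) and 48 h (right), with 1 symbol for each same-numbered pair of arrays and a bar at the mean of 3 pairs. At 48 h every symbol lies below 0, from -0.71 to -0.17, while at 24 h those of pair 1 scatter around 0.

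Cdc20 read 2217, 1723 and 1557 in untreated cultures at 48 h, and 1548, 1212 and 998 in treated ones. Every treated array was below every control, and the gene fell by 0.56 on the log2 scale, a signal 32.0% lower (SE 0.07, n = 3 pairs, limma adjusted p = 0.0347). The gene has other tested probe sets, which were also lower, at -0.37 and -0.20, and did not pass (limma adjusted p = 0.139 and 0.600).

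Plk1, the polo-like kinase that drives entry into mitosis and spindle assembly, read 1594, 1263 and 1489 against 1106, 877 and 1138. The groups did not overlap, and it fell by 0.48 (SE 0.07, n = 3 pairs, limma adjusted p = 0.0444). Bub1b, whose product BubR1 belongs to the spindle checkpoint, read 986, 634 and 660.2 against 692, 468 and 402. The treated array of pair 1 lay above the controls of pairs 2 and 3, but each pair moved down, with log2 ratios of -0.51, -0.44 and -0.71. The mean fall was 0.55 (SE 0.09, n = 3 pairs, limma adjusted p = 0.0446).

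Kif20a, a kinesin of the central spindle, read 2085, 1858 and 1561 in control cultures, and 1535, 1138 and 1199 in treated ones. No treated array reached a control, and the log2 fold change of -0.51 (SE 0.09, n = 3 pairs, limma adjusted p = 0.0619) did not pass. Cdk1, the kinase at the centre of mitotic entry, had close replicates, at 4503, 4465 and 4500.0 against 3599.5, 3404 and 3313. Its groups were far apart relative to their spread, with a log2 fold change of -0.39 (SE 0.07, n = 3 pairs, limma adjusted p = 0.0632). The other mitotic cyclins and kinases, Ccna2, Ccnb1, Ccnb2, Aurka and Aurkb, ran from -0.44 to -0.41, and Ube2c was at -0.42.

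The spindle and cytokinesis genes, Birc5, Kif11, Kif20a, Nusap1 and Prc1, had a median of -0.41. Of these 0 of 5 were called, beside 1.19% of all probe sets called lower and 2.33% higher. Mad2l1 was at -0.37 and Bub1 at -0.27, and the chromosome genes Top2a, the topoisomerase that untangles sister chromatids, and Mki67, the proliferation antigen Ki-67, were at -0.32 and -0.29. A different probe set of Mad2l1, of lower signal, was at -0.57 and passed (limma adjusted p = 0.0436). In all, 8 further probe sets of mitosis genes were tested, and all 8 were below 0 at 48 h.

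**Figure D2:**
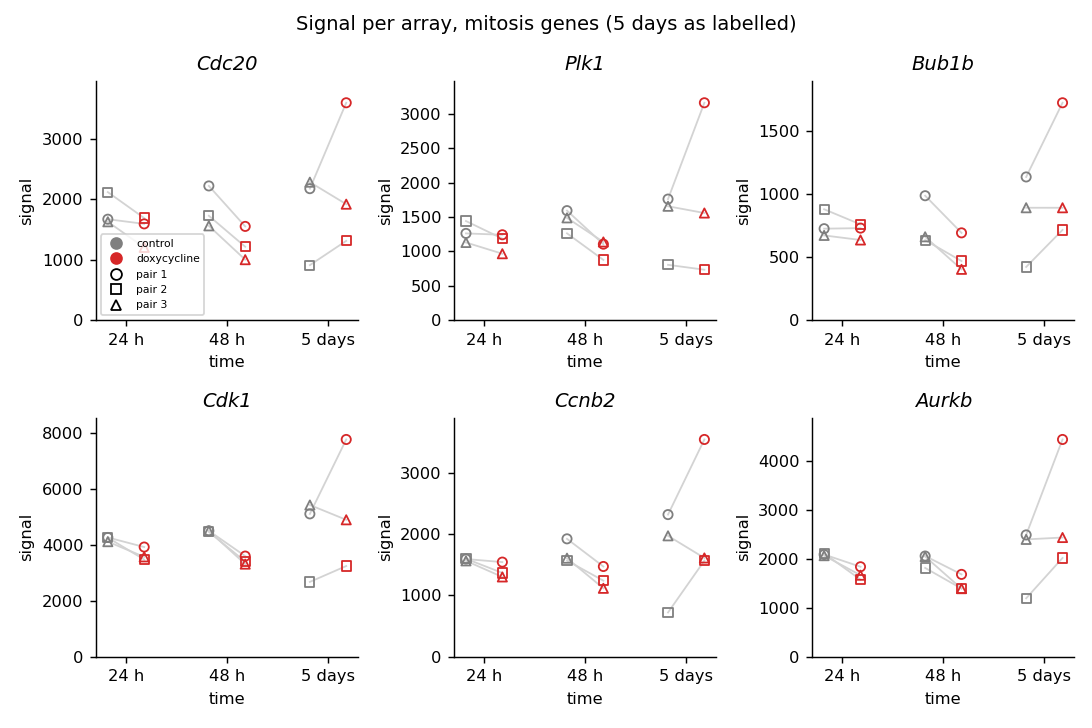
Quantile-normalized signal of 6 mitosis genes in each of the 18 arrays, with control in grey, doxycycline in red, 1 symbol shape per pair and a line joining each pair. Doxycycline arrays lie below their own controls in all 6 genes at 48 h, and at 5 days the control array labelled replicate 2 is the lowest in all but Plk1.

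DNA replication genes had log2 ratios closer to 0 than mitosis genes did at 48 h. Their median log2 ratio was -0.17, a signal 11.0% lower, with -0.12, -0.24 and -0.14 in pairs 1, 2 and 3. Of 15 genes, 14 were below 0, beside 52.4% of all probe sets, and 9 were below 0 in all 3 pairs, beside 25.4%. Limma called none of them, beside 1.19% of all probe sets called lower. At an unadjusted limma p under 0.05, 4 were lower, beside 12.5% of all probe sets. The mitosis median was below the replication median by 0.26, 0.15 and 0.30 in pairs 1, 2 and 3 at 48 h, against 0.02, 0.04 and 0.04 at 24 h. These gaps are descriptions of chosen lists, and were not tested.

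**Figure D3:**
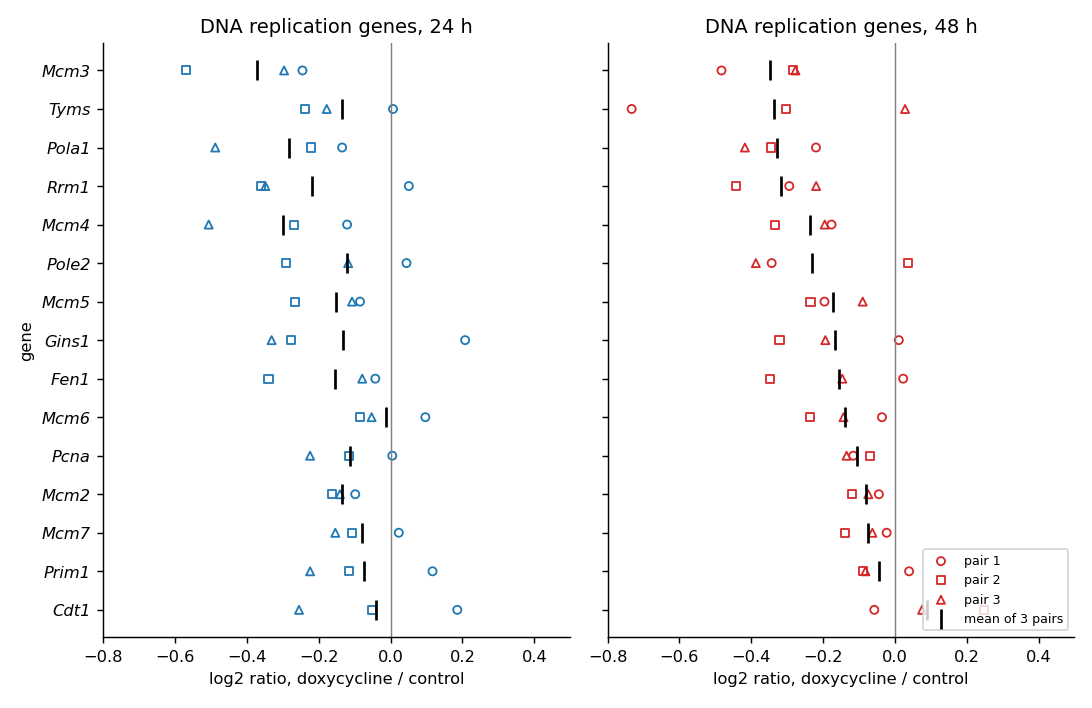
Log2 ratio of doxycycline to control for 15 DNA replication genes at 24 h (left) and 48 h (right), with 1 symbol for each same-numbered pair and a bar at the mean of 3 pairs. At 48 h the means run from -0.35 in Mcm3 to 0.09 in Cdt1, on the same axis as the plot of mitosis genes.

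Mcm3 was the replication gene with the largest difference again, at 1914, 1839 and 1644 in untreated 48 h cultures, and 1369.6, 1511 and 1357 in treated ones. The groups did not overlap, with a log2 fold change of -0.35 (SE 0.08, n = 3 pairs, limma adjusted p = 0.0882). Pola1 read 1174, 1282 and 1205 against 1008, 1009 and 902, and Rrm1, the large subunit of ribonucleotide reductase, which makes deoxynucleotides, 3240.5, 3304 and 2745 against 2643, 2433 and 2358. Neither overlapped, at -0.33 and -0.32 (limma adjusted p = 0.0900 and 0.0993). Mcm4 read 1451, 2163 and 1966 against 1284, 1716 and 1716, lower in each pair with overlapping groups (-0.24, limma adjusted p = 0.150).

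Differences between the MCM subunits were not tested, and none of the 6 passed. Mcm3 and Mcm4 were at -0.35 and -0.24, while Mcm2 and Mcm7 were at -0.08 and -0.07, with Mcm5 at -0.17 and Mcm6 at -0.14, although all 6 were below 0 in all 3 pairs. Pcna, the sliding clamp of the polymerases, was at -0.11, and Prim1, the primase, at -0.04. Cdt1, which loads the helicase in G1 phase, was the only one of the 15 with a mean above 0, at 0.09, and was lower in 1 pair. Tyms, thymidylate synthase, ranged widely, with ratios of -0.73, -0.30 and 0.03. The 7 genes with E2F letters in the promoter ran from -0.34 in Tyms to -0.07 in Mcm7.

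The G1 genes had a median log2 ratio of -0.04 at 48 h, the nearest to 0 of the 5 roles. Limma called 0 of 6, beside 1.19% of all probe sets called lower and 2.33% higher. At an unadjusted limma p under 0.05, 2 of the 6 were lower, beside 12.5% of all probe sets. Those were Ccnd3 (cyclin D3) and Ccne1 (cyclin E1), partners of the kinases that carry cells through G1 phase. Ccnd3 read 968, 969 and 1076 in control cultures, and 839, 802 and 907 in treated ones. No treated array reached a control, as held for 10.8% of all probe sets (-0.24, limma adjusted p = 0.125). Ccne1 read 831, 1037 and 959.8 against 767, 873 and 754, with 1 treated array above the lowest control (-0.24, limma adjusted p = 0.165). Ccnd2 and Cdk4 were at 0.03 and -0.05. At 24 h the median of the 6 was -0.05 and none had 1 sign in all 3 pairs. At that time 0 were called, beside 0.0129% of all probe sets called lower and 0.193% higher. At an unadjusted limma p under 0.05 there were 0, beside 6.94% of all probe sets lower and 7.75% higher.

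The CDK inhibitors differed from one another in direction. Cdkn1b, the gene of p27, was higher at both times: 4186, 4229 and 4178 in the controls against 5429, 5508 and 4429.6 at 24 h, and 3999, 3622 and 4268 against 4914, 4822 and 4652 at 48 h. Treated arrays lay above all controls at each time, as did 5.03% of all probe sets at 24 h and 11.3% at 48 h. The log2 fold change was 0.28 at both times (SE 0.09 and 0.09, n = 3 pairs, limma adjusted p = 0.272 and 0.143), which did not pass. In each case pair 3 had the smallest difference within a pair, at 0.08 and 0.12.

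Cdkn2c, the gene of p18, read 1755, 1568 and 1395 against 1561, 1376 and 1097 at 24 h, and 1554, 1529 and 1275 against 1316, 1113 and 1036 at 48 h. It was lower in every pair at both times with overlapping groups, at -0.23 and -0.33 (limma adjusted p = 0.274 and 0.0921). Cdkn1a, the gene of p21 and a classical target of p53, read 721, 752 and 1043 against 547, 562 and 992 at 24 h. It was lower in each pair, at -0.30 (limma adjusted p = 0.273). At 48 h it read 457, 877 and 1184 against 582, 887 and 1069, with pairs on both sides of 0 and a mean of 0.07.

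Of the transcription factors, Mybl2 read 486, 516 and 456 in untreated 48 h cultures, and 299, 405 and 291 in treated ones. Every treated array was lower than every control, and the log2 fold change of -0.57 was the largest in size among the 46 genes, just outside the threshold (SE 0.10, n = 3 pairs, limma adjusted p = 0.0556). Another tested probe set of Mybl2 was also lower, at -0.52, and was further from the threshold (limma adjusted p = 0.137). Foxm1 had ratios of 0.09, -0.43 and -0.51, and E2f1, one of the E2F factors themselves, -0.04, -0.08 and 0.40, so neither went one way in all pairs.

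At 24 h, Foxm1 read 677, 752 and 551 against 622, 646 and 506. E2f1 read 843, 793 and 703 against 832, 651 and 644. Both were lower in each pair with overlapping groups, at -0.15 and -0.14 (limma adjusted p = 0.396 and 0.483).

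**Figure D4:**
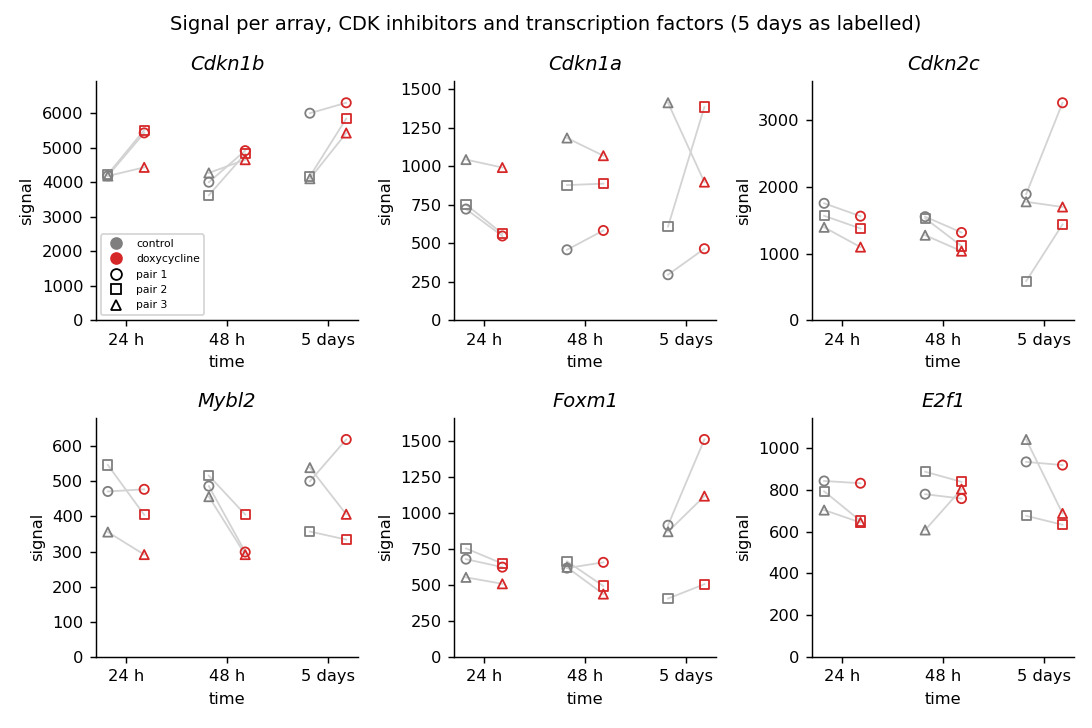
Quantile-normalized signal of 3 CDK inhibitors and 3 cell cycle transcription factors in each array, with control in grey, doxycycline in red, 1 symbol shape per pair and a line joining each pair. Cdkn1b is higher with doxycycline in every pair at 24 h and 48 h, with log2 fold changes of 0.28, and Mybl2 is lower in every pair at 48 h, at -0.57.

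Whether the effect grew from 24 h to 48 h was tested in 1 limma fit of those 12 arrays with 6 pairs as blocks. The difference of effects, 48 h minus 24 h, was below 0 in 19 of 19 mitosis genes, with a median of -0.24, beside 50.7% of all probe sets below 0. Over replication genes its median was -0.003, with 8 of 15 below 0. None of the 46 was called, as was 0% of all probe sets, and 3 mitosis genes, Ccna2, Plk1 and Bub1b, were lower with p-values left unadjusted (under 0.05), beside 3.32% of all. The difference was -0.46 in Bub1b, with the smallest limma adjusted p of the set at 0.658, so growth of the effect was not shown for any single gene.

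No difference between untreated cultures at 48 h and 24 h was detected in these genes. The median difference was 0.03 over replication genes and 0.02 over mitosis genes, 22 of 46 were below 0 beside 49.7% of all, and limma called 0 of 46. It had 0 at an unadjusted p under 0.05, where 1.45% of all probe sets were lower and 1.06% higher and 0% were called. The labels do not say whether the times came from separate experiments, and the replicate 2 control of 24 h correlated best with the replicate 1 control of 48 h (r = 0.990 across probe sets, which are not independent replicates).

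In the same 12-array fit, which pools the spread of both times, 14 of the 46 genes were called lower at 48 h and 0 higher, beside 4.73% and 5.64% of all probe sets. They were 11 mitosis genes (Ccna2, Ccnb1, Ccnb2, Cdk1, Aurka, Aurkb, Plk1, Bub1b, Cdc20, Prc1 and Ube2c) and Mcm3, Cdkn2c and Mybl2. At 24 h this fit called 0 of 46, and the share of all probe sets it called at that time is not given here. The count of called genes thus depended on the fit: without pairs as blocks it was 0 at 48 h, and it was also 0 without pair 1, without pair 2 or without pair 3. Shares of all probe sets called in these fits are not given here, so these counts cannot be set beside the whole array. The mitosis median stayed between -0.43 and -0.36 over those alternatives that change it.

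Lists of other genes of the same processes were counted in the same way. Of 40 other mitosis genes tested, 38 were below 0 at 48 h, beside 52.4% of all probe sets, with a median of -0.34. Limma called 2 of them lower, beside 1.19%, and before adjustment 33 were lower and 1 higher, beside 12.5% and 12.2%. These were Kif22, a chromosome-arm kinesin, at -0.51 (SE 0.07, limma adjusted p = 0.0393), and Pttg1, the gene of securin, at -0.47 (limma adjusted p = 0.0439). Of 37 other replication genes, 28 were below 0, beside 52.4% of all probe sets, with a median of -0.13. Limma called 0 of them, beside 1.19% of all probe sets called lower and 2.33% higher. Before adjustment 10 were lower and 2 higher (limma p under 0.05), beside 12.5% and 12.2% of all probe sets. At 24 h the medians were -0.14 for each list with 0 called, beside 0.0129% of all probe sets called lower and 0.193% higher. The unadjusted counts were 5 lower and 1 higher of 40, and 6 lower and 1 higher of 37. At that time 6.94% of all probe sets were lower and 7.75% higher by the same measure.

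Of 31 other cell cycle regulators, 1 was called higher at 48 h and 0 lower, beside 2.33% and 1.19% of all probe sets, so the share of the list is near that of all. It was Myc, the transcription factor that promotes growth and division, with log2 ratios of 1.01, 1.02 and 0.93 (0.99, SE 0.07, n = 3 pairs, limma adjusted p = 0.0135). The median of the list was -0.05. Of 13 p53 target genes none was called at 24 h or 48 h, with medians of -0.04 and -0.06. Of all probe sets 0.193% were called higher and 0.0129% lower at 24 h. At 48 h 3 of the 13 were higher and 2 lower with p-values left unadjusted (under 0.05), beside 12.2% and 12.5% of all probe sets.

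The summed signal of the markers of other islet cells differed at 48 h, from 1591 to 2186 in the controls and from 368 to 401 with doxycycline. It overlapped at 24 h, at 435 to 2467 and 214 to 1215. The sums overlapped at 5 days as labelled too, at 108 to 2249 and 260 to 425. Of the 5 measured, only Gcg, the glucagon gene, was in the upper 50% of signal, while Sst, Ppy, Ghrl and Hhex reached at most 91.3 signal units on any array. The part of this in the result for mitosis genes was not tested. The summed beta-cell markers did not overlap either, at 112026 to 124139 in untreated cultures and 98030.2 to 111079 in treated ones, and their part was not tested. The summed fibroblast markers overlapped, at 1698 to 1929 and 1549 to 1937.

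The 5-day arrays need care. Of 29 probe sets raised at both 24 h and 48 h, all 29 were lower with doxycycline in the pair labelled replicate 1, at a median log2 ratio of -1.51, while the medians of pairs 2 and 3 were 1.62 and 1.09. One of them, Sdf2l1, a chaperone gene of the stress response, read 6825 in the library labelled control replicate 1 and 907 in the library labelled doxycycline replicate 1, against 595 and 5408 in pair 2 and 1589 and 5014 in pair 3. The doxycycline array of replicate 2 had a GAPDH 3′ to 5′ signal ratio of 2.91, a measure of RNA degradation, against 1.05 to 1.19 in the other 17 arrays, and a median correlation of 0.870 with the others against 0.956 to 0.977. So only pair 3 was free of both marks.

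As labelled, no cell cycle gene passed at 5 days. Limma called 0 of 46, as it called 0% of all probe sets, with 1 gene, Foxm1, higher and 0 lower with p-values left unadjusted (under 0.05), beside 1.11% and 1.37% of all probe sets. The methods' t-test had 0 in either direction with and without adjustment, beside 0.683% of probe sets lower and 1.15% higher without it. The mitosis median was 0.33 and the 3 pairs disagreed, at 0.57, 0.53 and -0.09. The replication median was 0.16, at 0.04, 0.29 and 0.0005 in the pairs. With the 2 labels of pair 1 exchanged the medians were -0.02 and 0.10, again with 0 called of 46 and 0% of all. A fit of all 18 arrays with that exchange called 0 of 46 as well, beside 0.908% of probe sets lower and 1.83% higher. Of the 46, 12 were above 0 in all 3 pairs as labelled and 4 below, beside 13.6% and 9.84% of all probe sets. In pair 3 alone 13 of 19 mitosis genes were below 0, with ratios from -0.29 in Ccnb2 to 0.30 in Ccna2.

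**Figure D5:**
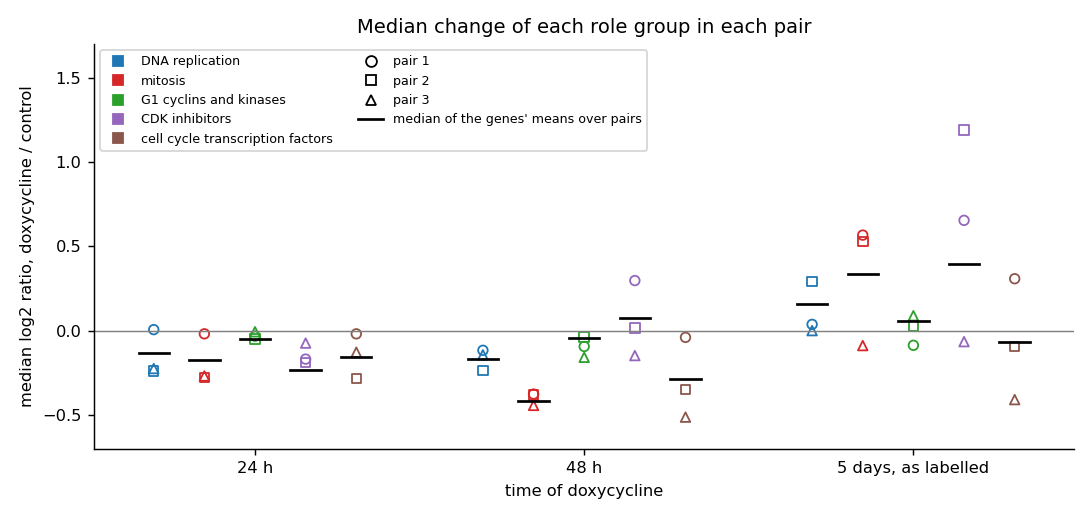
Median log2 ratio of doxycycline to control over the genes of each role in each pair, by time, with a bar at the median of the genes' means over 3 pairs. The mitosis pairs lie together at -0.44 to -0.38 at 48 h and apart, from -0.09 to 0.57, at 5 days as labelled.

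Single genes at 5 days showed how far the cultures differed. For Aurkb the control labels had signals of 2494, 1197 and 2402, and the doxycycline labels 4447, 2022 and 2441. Ccna2 read 4371, 1447 and 3019 against 5124, 2858 and 3724, and Nusap1, a spindle-associated protein, 4945, 1842 and 4115 against 6999, 2973 and 4569.5. In each the control labelled replicate 2 was the lowest of the 6 and the doxycycline library of replicate 1 the highest, so the spread within a label exceeded the difference between labels.

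Mki67 read 4005, 1875 and 3239 against 4597, 3281 and 3426. Foxm1 read 913, 404 and 868 against 1507, 503 and 1114, a log2 fold change of 0.47 (SE 0.18, n = 3 pairs, limma adjusted p = 0.935) that was -0.02 with the labels of pair 1 exchanged. In both genes the lowest array was again the control labelled replicate 2. E2f1 read 934, 676 and 1042 against 919, 633 and 687, lower in each pair as labelled with overlapping groups (-0.24, limma adjusted p = 0.935).

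Among replication genes at 5 days, Cdt1 read 919, 884 and 903 against 807, 543 and 884, and Pola1 1108, 904 and 1219 against 1331, 1326 and 1219. Mcm5 read 966, 582 and 875 against 1009, 936 and 880.4, and Prim1 8575, 7233 and 9587 against 9741, 8835 and 9608. The differences came mainly from pairs 1 and 2, and in pair 3 the log2 ratios of these 4 genes were -0.03, 0.001, 0.01 and 0.003.

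Ccnd2, cyclin D2, was the only tested member with a mean change of 2-fold or more at any time, which 0.232%, 0.702% and 1.97% of probe sets had at the successive times. Its control labels had signals of 8069, 12656 and 9925, and the doxycycline labels 5128, 1145 and 8807, with log2 ratios of -0.65, -3.47 and -0.17. With the labels of pair 1 exchanged the mean was -0.995, just under 2-fold. The mean of -1.43 as labelled (SE 0.67, limma adjusted p = 0.935) rested on the doxycycline array of replicate 2, the one with the raised GAPDH ratio, and whether RNA quality had a part in it was not tested. As labelled, Cdkn1b was higher than its own control in all 3 pairs at 5 days too, at log2 ratios of 0.07, 0.49 and 0.40 (0.32, SE 0.18, limma adjusted p = 0.935). After the exchange of labels its pair 1 was below 0 and the mean was 0.27.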

How the data were processed

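The authors deposited linear signal intensities of Affymetrix rat arrays, 1 per probe set and array, scaled to a common 2% trimmed mean (500.14 to 500.17 over the arrays). The sources used here do not name the program, and no detection calls were used. Of 31099 probe sets 57 controls were left out. Of the other 31042, 20826 have 1 gene in the platform annotation, 436 have several and 9780 have none, and 20764 were matched to the RefSeq gene table of GRCr8 for current names.

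The intensities were quantile normalized, since the array medians ran from 91.2 to 138.5, values under the 10th percentile (5.99) were set to it, and log2 was taken. The 15521 probe sets in the upper 50% of mean log2 signal were tested. A limma model (limma 3.58.1 under R 4.3.3) of the 6 arrays of each time had the 3 same-numbered pairs as blocks, with Benjamini-Hochberg adjustment over all probe sets tested and a threshold of 0.05. The study's supplementary lists give values for each of 3 experiments, and same-numbered arrays deviated together from the means of their groups. These correlations were 0.484 to 0.667 at 24 h, 0.256 to 0.578 at 48 h and only 0.109 to 0.149 at 5 days. The numbers were taken to pair the arrays at all times, with the least ground for it at 5 days. No 2 arrays were identical. Role groups are described by counts and medians, with no test. The study describes the 3 arrays of a group as separate experiments, and their number limits the precision of every value.

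The members, the lists and the tests were chosen with earlier results of these data known. Values of every array are given for genes past the threshold in the fit of 24 h or 48 h alone, and for up to 4 genes of each role and time with the largest mean change among those with 1 sign in all 3 pairs, and other lists by counts and their called genes. Array values of Cdk1 at 48 h and of Cdkn1a at 48 h were added after they had been seen. The motif letters were chosen with the gene names in view. Alternatives were a fit without pairs, fits of 12 or 18 arrays, no quantile normalization, no filter, no floor with 1 added before the log2, the mean of all probe sets of a gene, the methods' t-test, each pair left out, and at 5 days exchanged labels of pair 1. The fit was also run on simulated data with planted changes larger than those of the 3 genes called at 48 h. That run does not bear on changes of their size.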

Additional observations from a re-analysis of the deposited data

Results flagged for a closer look

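Some genes went one way in every pair at an early time and the opposite way in every pair at 5 days as labelled, which is why they are given here. The difference between times was not tested for them, and the labels of pair 1 at 5 days are in doubt, as described above. Against both 24 h and 48 h this held for Aurkb, whose mean log2 ratio was -0.31 and -0.41 at those times and 0.54 at 5 days. It also held at both for Mcm4 (-0.30, -0.24 and 0.13), Mcm5 (-0.15, -0.17 and 0.25) and Pola1 (-0.28, -0.33 and 0.27). Against 48 h alone it held for Ccna2 (-0.44 and 0.50), Nusap1 (-0.34 and 0.45), Mki67 (-0.29 and 0.36), Kif11 (-0.30 and 0.34) and Pcna (-0.11 and 0.16). Against 24 h alone it held for Foxm1 (-0.15 and 0.47). All of these genes were above 0 in pair 1 as labelled. With the labels of pair 1 exchanged that pair is below 0 in each, so none keeps 1 sign in all 3 pairs. The mean 5-day value was then -0.02 for Aurkb and -0.02 for Foxm1, and between 0.03 in Kif11 and 0.35 in Ccna2 for the others. In the pair labelled replicate 3, Aurkb was at 0.02, Kif11 at 0.02, Mcm5 at 0.01 and Pola1 at 0.0005. The other flagged genes were further above 0 in that pair: Foxm1 at 0.36, Ccna2 at 0.30, Nusap1 at 0.15, Pcna at 0.10, Mcm4 at 0.10 and Mki67 at 0.08. Groups of 3 arrays were not searched for single arrays standing apart.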

How the results depend on the processing

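Of the 46 genes, limma with pairs as blocks called 3 at 48 h. The count was 14 in the fit of 12 arrays, and 0 in the fit of all 18 arrays, with no filter on dim probe sets and with no replicate block for the pairs, while the methods' t-test called 1, Cdk1, after Benjamini-Hochberg adjustment, and had 17 lower and 1 higher at its own unadjusted threshold. Leaving out pair 1, 2 or 3 gave 0 each time. Without quantile normalization and without the floor the count was 4 (Cdc20, Plk1, Bub1b and Mybl2) and 3 (without Mybl2). At 24 h, at 5 days, for the difference of effects and for untreated cultures, 0 genes were called under all 10, 11, 7 and 5 alternatives run. Where no share of all probe sets is given for an alternative, its count cannot be set beside the whole array.

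The log2 fold changes of Cdc20, Plk1 and Bub1b at 48 h kept their sign in all 10 alternatives, from -0.58 to -0.51, -0.53 to -0.46 and -0.61 to -0.47, with limma adjusted p from 0.0113 to 0.352, 0.0127 to 0.371 and 0.00962 to 0.364, and 0.405, 0.290 and 0.517 by the methods' t-test. The mitosis median at 48 h was -0.42 and ran from -0.43 to -0.36 with each pair left out in turn, and the replication median from -0.18 to -0.13. At 5 days the mitosis median of 0.33 was -0.088 in the replicate 3 pair alone, an alternative chosen after seeing the data, and up to 0.53 with a pair left out. The cause of these changes was not tested. With 3 arrays a group, genes that differ by 25% lie near the threshold, and genes of dim signal, such as Ccnd1, were not tested.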
